A study of Mus musculus with 6 samples.

Results

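Semaphorins, their plexin and neuropilin receptors, and the CRMP and MICAL proteins that act inside the cell downstream of them were compared between D6/Zbtb20S transgenic and wildtype mice on postnatal day 1. The members were all genes with a symbol of the Sema3 to Sema7, Plxn, Plxdc or Nrp series, together with Crmp1, Dpysl2 to Dpysl5 and Mical1 to Mical3. They numbered 41 of the 18193 genes on the array, and each was read on the probe set with the highest mean signal over all 6 arrays. The tissue was the subiculum and the retrosplenial cortex, on a C57BL/6 background in both genotypes. Wildtype littermates gave 3 arrays. D6/Zbtb20S mice, whose subiculum and retrosplenial cortex the labels call CA1-transformed after a field of the hippocampus, gave 3 more. Each array held RNA pooled from 7 animals. Whether different pools drew on different litters is not stated, and neither is the cell type in which the D6 transgene was active. The p-values therefore cover the variation among the pools as hybridised, which may be technical.

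Semaphorins are guidance cues that steer growing axons, dendrites and migrating neurons, mostly by repulsion. Class 3 members are secreted, and most of them bind a complex of a neuropilin, which holds the ligand, and an A-type plexin, which carries the signal. Sema3e differs in that it can bind Plxnd1 directly. Most members of classes 4 to 7 are held at the membrane and bind plexins without a neuropilin. Inside the cell, plexins act on small GTPases, and CRMP and MICAL proteins act on microtubules and actin.

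The ligands Sema3e and Sema3d, the receptor Nrp2 and the plexin domain gene Plxdc2 were higher in transgenic tissue. The ligands Sema6d and Sema7a and the actin-oxidising enzyme gene Mical2 were lower. In counts, 4 of 41 members rose and 3 fell at an adjusted p under 0.05 (limma fitted over all genes, Benjamini-Hochberg), and 34 did not pass. Of all 18193 genes, 4.06% rose and 3.64% fell, 7.71% in either direction. An unadjusted p under 0.05 in limma was found for 13 of 41 members and for 3694 of all 18193 genes. The members' median log2 change (D6/Zbtb20S minus wildtype) was -0.02, as it was over all genes (-0.02). Only Sema3e and Nrp2 among the 41 passed with a change of at least 2-fold, which 1.45% of all genes did. The arrays of the genotypes did not overlap for 14 of 41 members (34.1%) and for 26.1% of all genes. Only 3 of 41 members were under the array median in both genotypes, against 6258 of 18193 genes. The shares of members and of all genes were therefore not matched for signal. The count of members that rose was 6 without wildtype replicate 3 and stayed at 4 without D6/Zbtb20S replicate 2. With any other single array dropped, 3 members rose. The count that fell was 0 without wildtype replicate 2 or D6/Zbtb20S replicate 2, 1 without wildtype replicate 3 or D6/Zbtb20S replicate 1, and 2 without D6/Zbtb20S replicate 3.

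**Figure D1:**
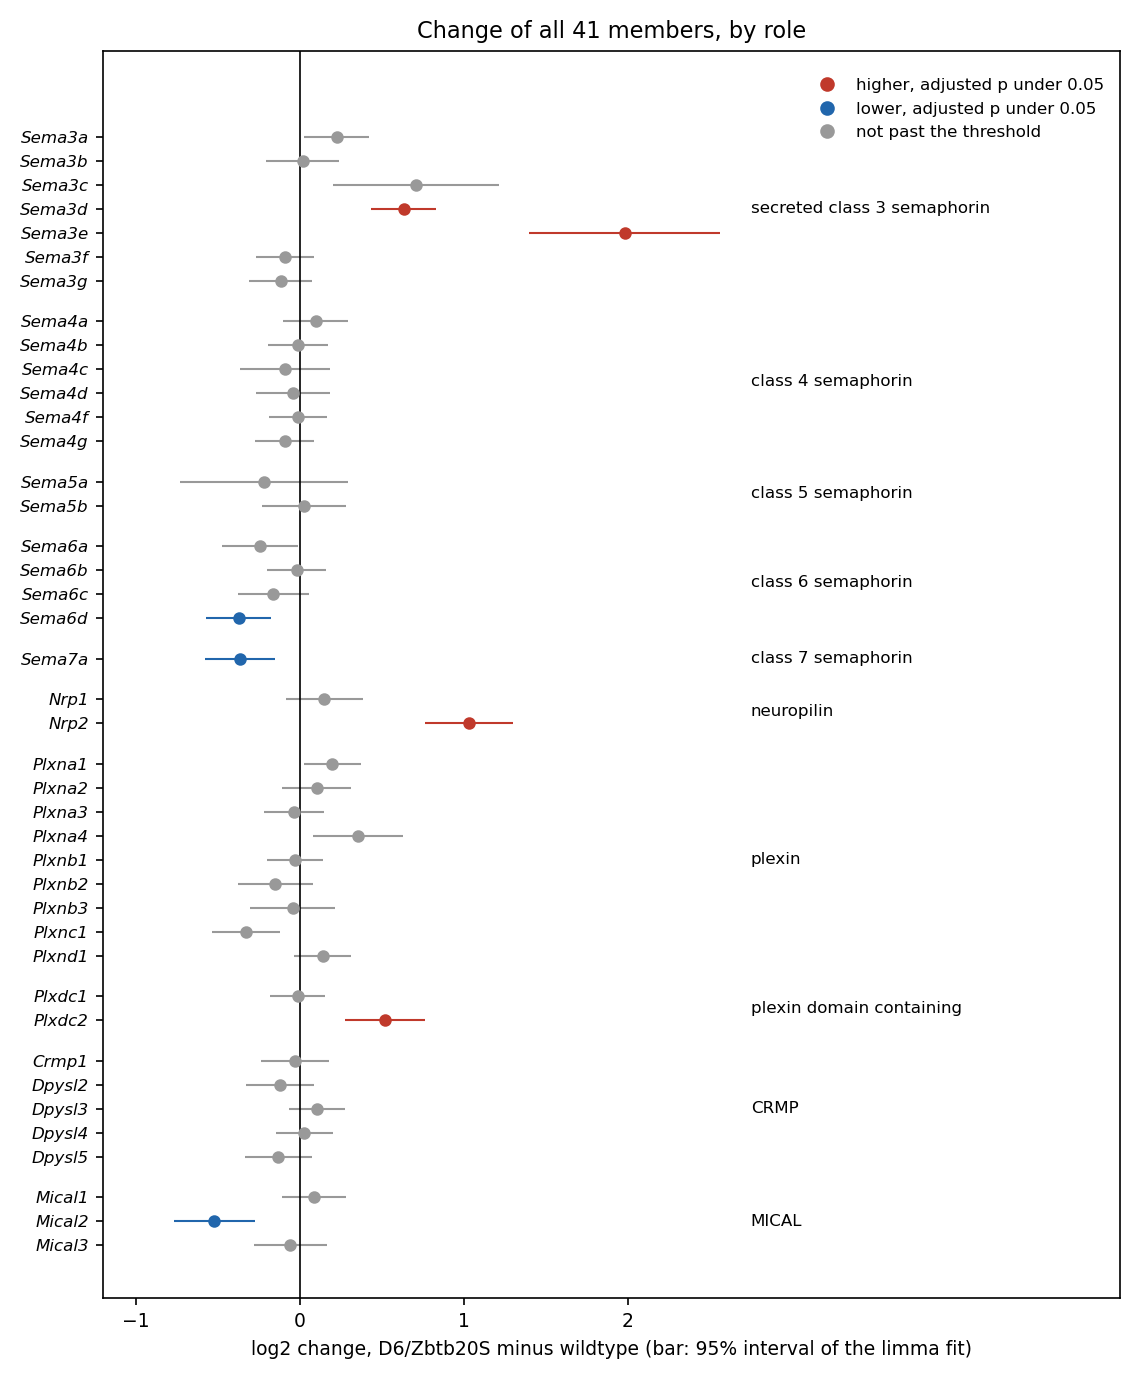
Log2 change (D6/Zbtb20S minus wildtype, horizontal axis) of each of the 41 members, grouped by role, with bars for the 95% interval of the limma fit over 3 arrays per genotype. Sema3e lies farthest to the right at 1.98, followed by Nrp2 at 1.03, and the 6 class 4 semaphorins lie between -0.09 and 0.10.

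The arrays were alike in scale, with medians from 3.83 to 3.97 on the log2 axis. Of 9 Zbtb20 probe sets 1 passed, 1422064_a_at, which read 6.44, 5.84 and 7.64 in wildtype and 8.88, 9.10 and 8.94 in transgenic tissue (limma adjusted p over all probe sets = 0.00904). Wildtype replicate 3 was the highest and replicate 2 the lowest wildtype array on each of the 9 (for example 8.15, 7.90 and 8.98 on 1437598_at). The cause of this spread among wildtype arrays was not tested. Replicate 3 was also the highest wildtype array on 18 of 41 members (43.9%, against 35.9% of all genes). The 3'-minus-5' log2 signal of the actin control, a sign of RNA quality, was 0.53, 0.88 and 1.31 in wildtype replicates 1, 2 and 3 and 0.80 to 0.91 in transgenic arrays. The wildtype signal followed that order in 10 of 41 members (24.4%, against 21.9% of all genes), among them 4 of the 7 that passed, Sema3e, Sema3d, Plxdc2 and Sema6d (57.1%, against 31.4% of all genes that passed). It did so on 7 of the 18 called member probe sets, the brightest of Sema3e, Sema3d and Plxdc2 and 1 each of Plxna2 (1429772_at), Nrp1 (1448944_at), Nrp2 (1456778_at) and Dpysl3 (1438789_s_at). The part of RNA quality in these differences was not tested. Of 8 markers of the dissected areas, none was under the array median in both genotypes, 7 fell and 1 rose (3.64% and 4.06% of all genes did). This list was chosen with earlier results of these data known. Their summed linear signal was 4215 to 4981 in wildtype and 777 to 917 in transgenic arrays. The brightest marker, Nts (log2 11.55, 11.25 and 11.05 in wildtype), weighed most in that sum. In bulk tissue, fewer cells of a type and less RNA per cell cannot be told apart.

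Among the secreted class 3 ligands, 2 of 7 rose and 0 fell, with a median log2 change of 0.22. Sema3e, a ligand that acts on neurons and endothelial cells that carry Plxnd1, had a log2 signal of 4.42, 4.69 and 5.62 in wildtype replicates 1, 2 and 3. In transgenic tissue it read 6.92, 6.66 and 7.09. The genotypes did not overlap, and wildtype replicate 3 stood above the other wildtype arrays. The difference was 3.95-fold (log2 change 1.98 ± 0.26, SE, limma adjusted p = 0.00129, n = 3 and 3). Without wildtype replicate 3 the log2 change was 2.33 (adjusted p = 1.05e-05), and without wildtype replicate 1 it was 1.74 (adjusted p = 0.0041).

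Sema3e was higher on 3 of its 4 probe sets in a fit over all 45037 probe sets, in which 3.4% rose and 2.11% fell, 5.52% together. On 1419717_at it read 4.30, 4.30 and 4.75 in wildtype and 6.52, 6.14 and 6.53 in transgenic tissue, a log2 change of 1.95 ± 0.15. Here too wildtype replicate 3 was the highest wildtype array, but nearer to the other wildtype arrays. The set 1427673_a_at had a change of 1.09 ± 0.12 (limma adjusted p = 0.00184), and the fourth, 1425906_a_at, was under the array median in both genotypes (0.13 ± 0.14). Averaged over all 4 sets, Sema3e had a log2 change of 1.29 (limma adjusted p = 0.00031).

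Sema3d, a ligand that acts on axons and on endothelial cells, was dim. It read 3.12, 3.22 and 3.24 in wildtype and 3.97, 3.76 and 3.75 in transgenic tissue, and the mean of either genotype was under the array median. The genotypes did not overlap, and the log2 change was 0.63 ± 0.09 (limma adjusted p = 0.00185). Changes near the floor of the scale are compressed, so the fold of 1.55 may be too small. Its other probe set, 1453148_at, was dimmer still and had a change of 0.07 ± 0.09, and the mean of both sets changed by 0.35 (limma adjusted p = 0.013).

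Sema3c, which attracts some axons and repels others, did not pass. Its wildtype arrays were spread widely, at 8.17, 7.51 and 8.49, and its transgenic arrays read 8.94, 8.90 and 8.45. Wildtype replicate 3 lay just above the lowest transgenic array. The log2 change was 0.70 ± 0.23 (limma adjusted p = 0.101). It was 0.92 without wildtype replicate 3 (adjusted p = 0.0214) and 0.43 without wildtype replicate 2 (adjusted p = 0.247). Sema3a, the classic growth cone collapsing factor, read 5.77, 5.90 and 5.91 in wildtype and 6.22, 6.04 and 6.00 in transgenic tissue. It did not overlap between genotypes and did not pass (0.22 ± 0.09, limma adjusted p = 0.185).

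Sema3b and Sema3g, secreted ligands of the same class, had changes of 0.02 ± 0.10 and -0.12 ± 0.08. Sema3g was under the array median in both genotypes, where its wildtype arrays, from 3.67 to 3.79, met the transgenic ones, from 3.48 to 3.67, without crossing them. Sema3f, a repellent of axons that carry Nrp2, had a change of -0.09 ± 0.08 on its brightest probe set, 1438947_x_at, of a type that can match other transcripts. On 1420508_at it read 4.62, 4.65 and 4.42 in wildtype and 4.0, 4.05 and 4.02 in transgenic tissue. On that set it fell without overlap (-0.54 ± 0.09, limma adjusted p over all probe sets = 0.00892), and without wildtype replicate 2 the call was lost (adjusted p = 0.055). The third set, 1425840_a_at, had a change of -0.52 ± 0.13 (adjusted p = 0.0536).

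The 4 class 3 genes with the most positive changes lie in the same stretch of chromosome 5, though Sema3a and Sema3c were not called. The grouping was made on these same values. In the GRCm38.p6 gene table Sema3d, Sema3a, Sema3e and Sema3c are numbers 1, 2, 6 and 22 of the 22 protein-coding genes from the first to the last. Besides the semaphorins, 5 of those were measured. Limma called 0 of these 5 in either direction, and 1 had an unadjusted p under 0.05 (3694 of all 18193 genes had). Their log2 changes ran from -0.31 (Pclo, a presynaptic scaffold gene, limma adjusted p = 0.129) to 0.13 (Hgf, a growth factor gene), with a median of -0.05.

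Of the neuropilins, Nrp2 rose and Nrp1 did not pass on its brightest probe set. Nrp2, the neuropilin that holds Sema3f and Sema3c, read 7.32, 6.91 and 7.13 in wildtype and 8.18, 8.28 and 8.0 in transgenic tissue. Every transgenic array lay above every wildtype one. The difference was 2.04-fold (log2 change 1.03 ± 0.12, limma adjusted p = 0.000576). Of its 4 probe sets 3 were higher, with changes of 1.03, 0.95 and 0.67, and 1447343_at had a change of 0.57 ± 0.18 (adjusted p = 0.124). The call of 1426528_at, the set at 0.67, rested on almost every array: it held with wildtype replicate 3 dropped and ended on dropping any of the other 5 (highest adjusted p 0.0917).

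**Figure D2:**
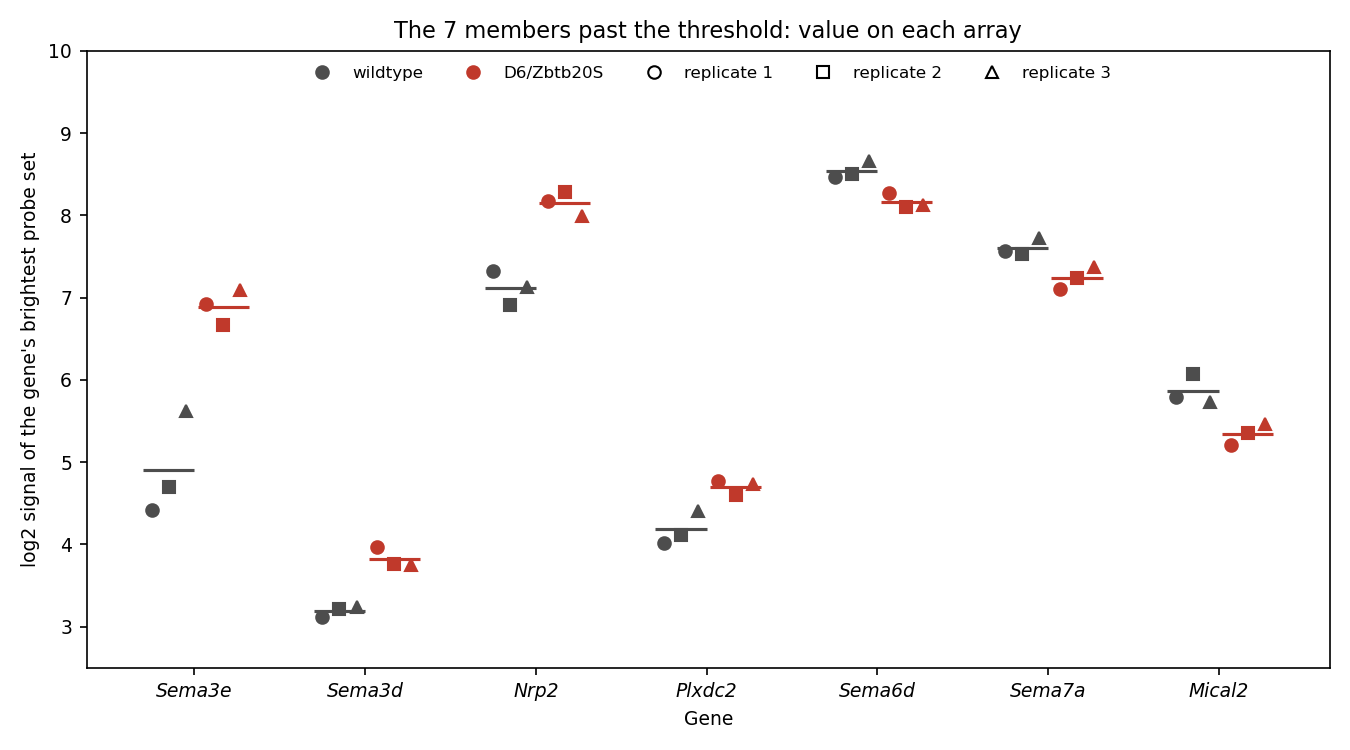
Log2 signal (vertical axis) of the 7 members past the threshold on each array, with wildtype in grey, D6/Zbtb20S in red, marker shapes for replicates and lines for group means (n = 3 each). No gene of the 7 overlaps between genotypes, the gap is widest for Sema3e, and wildtype replicate 3 (triangle) is the highest wildtype array for Sema3e, Sema3d, Plxdc2, Sema6d and Sema7a.

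Nrp1, the neuropilin that holds Sema3a, split between its probe sets. On the brightest, 1448943_at, it read 9.38, 9.59 and 9.53 in wildtype and 9.69, 9.80 and 9.46 in transgenic tissue, where the genotypes overlapped (0.15 ± 0.11, limma adjusted p over all genes = 0.489). On 1418084_at it read 8.42, 8.31 and 8.86 in wildtype and 9.27, 9.46 and 9.35 in transgenic tissue (0.83 ± 0.14, adjusted p over all probe sets = 0.0123). On 1448944_at it read 7.20, 7.30 and 7.61 in wildtype and 8.17, 8.24 and 8.04 in transgenic tissue (0.78 ± 0.12, adjusted p = 0.00651). Both of these rose without overlap, whereas 1457198_at overlapped and did not pass (0.42 ± 0.21, adjusted p = 0.349). Dropping replicate 2 of either genotype ended the call of 1418084_at (highest adjusted p 0.0604), and dropping any 1 of the 6 arrays left that of 1448944_at in place. The place of the probe sets along the transcript was not used here.

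None of the 9 plexins was called by limma on its brightest probe set. An unadjusted p under 0.05 was found for 3, namely Plxna1, Plxna4 and Plxnc1, and for 3694 of all 18193 genes. Plxna4, a partner of Nrp1 for Sema3a and a receptor of class 6 ligands, read 6.11, 6.40 and 6.61 in wildtype and 6.65, 6.72 and 6.81 in transgenic tissue. The groups came close without overlapping (0.35 ± 0.12, limma adjusted p = 0.128). The change was 0.47 without wildtype replicate 3 (adjusted p = 0.0289) and 0.22 without wildtype replicate 1 (adjusted p = 0.284). The other Plxna4 probe set, 1457840_at, had a change of 5e-04 ± 0.09, and the mean of both sets changed by 0.18 (limma adjusted p = 0.263). Plxna1, a receptor for class 3 and class 6 ligands, read 7.14, 7.16 and 7.05 in wildtype and 7.24, 7.35 and 7.36 in transgenic tissue. Its transgenic arrays were all higher, by little (0.20 ± 0.08, limma adjusted p = 0.189), and its other, dim probe set had a change of -0.20 ± 0.12. Plxna3, a partner of Nrp2, had a change of -0.04 ± 0.08.

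Plxnd1, the receptor of Sema3e, read 6.58, 6.55 and 6.52 in wildtype and 6.70, 6.61 and 6.76 in transgenic tissue. Its transgenic arrays were all higher by a small margin. The log2 change was 0.14 ± 0.08 (limma adjusted p = 0.367), with a 95% interval from -0.04 to 0.31. The B-type plexins, receptors of class 4 ligands, had changes of -0.15 to -0.03, and none of the 3 passed (smallest limma adjusted p = 0.466), nor had any an unadjusted p under 0.05 (0 of 3).

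Plxna2, a receptor of Sema6a that also partners neuropilins, differed between its probe sets. The brightest, 1455037_at, read 7.76, 7.65 and 7.96 in wildtype and 7.88, 7.88 and 7.93 in transgenic tissue (0.10 ± 0.09, limma adjusted p over all genes = 0.61). On 1429772_at it read 3.95, 4.95 and 5.30 in wildtype and 6.38, 6.44 and 6.32 in transgenic tissue, a 3.14-fold rise (1.65 ± 0.29, adjusted p over all probe sets = 0.0132). The sets 1451753_at and 1453286_at rose by 0.62 ± 0.09 and 0.60 ± 0.10. Thus 3 of 4 Plxna2 probe sets rose, each without overlap between genotypes, while the arrays overlapped on the brightest.

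Dropping transgenic replicate 1 or 2 ended the call of Plxna2 on 1429772_at (highest adjusted p 0.0655), and dropping replicate 2 of either genotype ended that of 1453286_at (highest adjusted p 0.0686). The call of 1451753_at held with any 1 of the 6 arrays dropped.

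Over all 41 members there were 99 probe sets, of which 16 were higher (16.2%, against 3.4% of all probe sets) and 2 lower (2.02%, against 2.11%). The 16 belonged to 7 genes, Sema3e, Sema3d, Nrp1, Nrp2, Plxna2, Plxdc2 and Dpysl3, and probe sets of 1 gene share its RNA. Of the 26 members with several probe sets and no call on the brightest, 4 had another probe set called, Nrp1, Plxna2, Dpysl3 and Sema3f. Among all such genes 6.7% did. These shares were not matched for signal, and 9160 of the 45037 probe sets tested had no symbol.

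**Figure D3:**
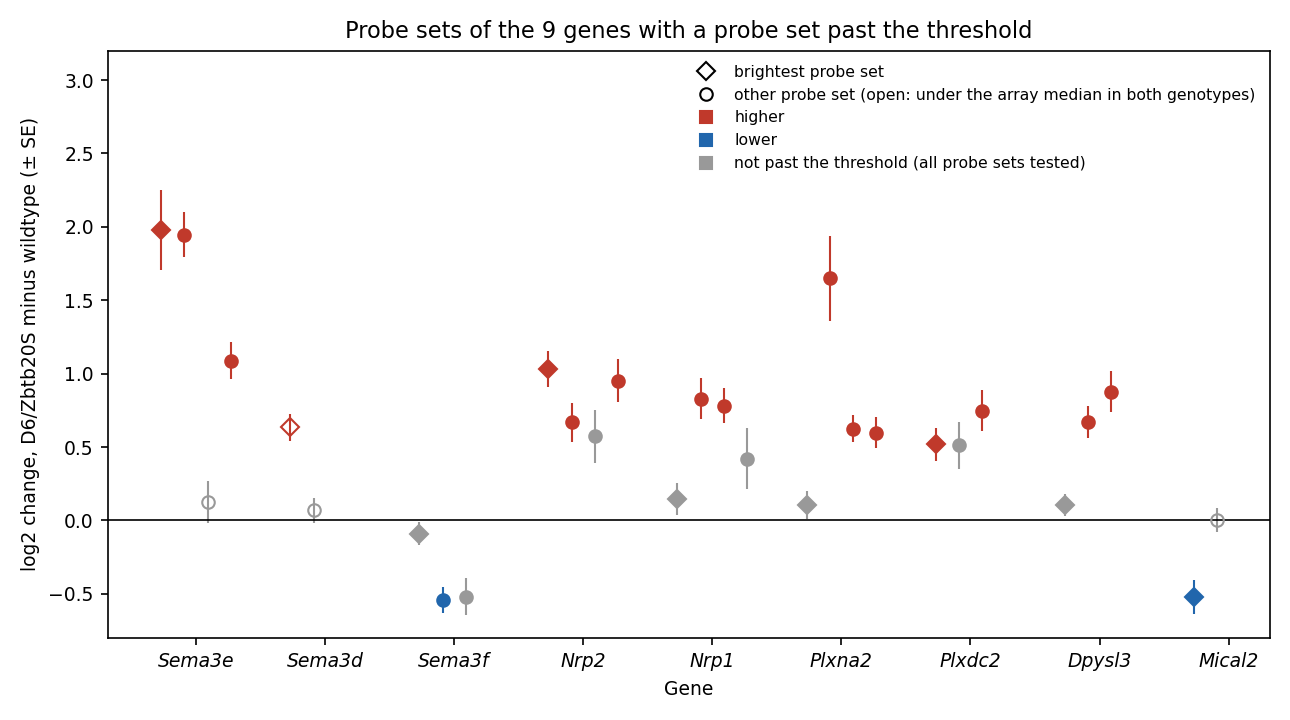
Log2 change (D6/Zbtb20S minus wildtype, vertical axis, bars are SE) of every probe set of the 9 genes with a probe set past the threshold over all probe sets. The diamonds of Nrp1, Plxna2 and Dpysl3, which mark the brightest probe set, lie at 0.15, 0.10 and 0.11, whereas the other probe sets of these genes lie between 0.42 and 1.65.

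Promoters are shown for Sema3e, Nrp2 and Plxna2, the ligand and the receptors with the largest rises on any probe set. Plxna2 was chosen on a dimmer probe set and was not called on its brightest (0.10, limma adjusted p over all genes = 0.61). Each is the 250 bases before the gene's start from RefSeq (GRCm38.p6), 5′ to 3′, with capitals for matches to the motifs searched. The Sema3e window is chr5:14025026-14025275, that of Nrp2 chr1:62703067-62703316 and that of Plxna2 chr1:194619579-194619828, all on the plus strand.
Sema3e: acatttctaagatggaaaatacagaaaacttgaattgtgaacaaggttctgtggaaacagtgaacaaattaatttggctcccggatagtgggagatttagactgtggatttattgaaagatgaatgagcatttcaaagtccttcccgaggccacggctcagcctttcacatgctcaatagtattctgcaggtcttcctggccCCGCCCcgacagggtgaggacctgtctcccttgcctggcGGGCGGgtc
Nrp2: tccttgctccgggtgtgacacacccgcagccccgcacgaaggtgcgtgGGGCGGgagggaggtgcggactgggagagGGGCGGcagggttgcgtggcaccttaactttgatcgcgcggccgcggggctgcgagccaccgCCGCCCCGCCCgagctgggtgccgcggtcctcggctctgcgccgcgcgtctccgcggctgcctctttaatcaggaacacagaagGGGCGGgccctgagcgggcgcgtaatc
Plxna2: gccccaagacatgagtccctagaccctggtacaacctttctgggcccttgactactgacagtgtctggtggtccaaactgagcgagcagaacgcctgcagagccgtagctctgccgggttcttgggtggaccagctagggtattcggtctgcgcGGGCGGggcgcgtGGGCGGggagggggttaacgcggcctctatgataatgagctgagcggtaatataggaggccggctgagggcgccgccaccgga
The letters searched on both strands were GGGCGG (the GC box bound by Sp factors), CCAAT (the box of that name), TATAAA (the TATA box), CAGCTG (an E-box), CAGATG (another E-box), TGANTCA (the AP-1 site), AGGTGTGA (a T-box site) and TGACGTCA (the cyclic AMP element), with overlapping matches kept. All capitals are GC boxes, 2 in Sema3e, 5 in Nrp2, of which 2 overlap, and 2 in Plxna2. The GC content was 48%, 72.4% and 62.8%, against a median of 52.4% over all windows. A GC box was present in 32.7% of the 32851 windows of this length in the table and in 31 of 44 windows (70.5%) of the members, 31 of which had an entry. CCAAT stood in 33.8% of all windows and in 9 of the 44, and TATAAA in 12.4% and in 1. CAGCTG and CAGATG stood in 13% and 14.4% of all windows and in 6 and 3 of the 44. TGANTCA stood in 6.75% of all windows and in 3 of the 44, and AGGTGTGA and TGACGTCA in 1.12% and 1.55% and in 0 of the 44. The table was used whole, and a match is a run of letters only.

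Sema7a and Plxnc1, a membrane-anchored ligand and its plexin, both had changes below 0, and that of the ligand passed. Sema7a, which promotes axon growth through integrins and also binds Plxnc1, read 7.57, 7.53 and 7.72 in wildtype and 7.11, 7.24 and 7.38 in transgenic tissue. All transgenic arrays were lower (log2 change -0.37 ± 0.10, limma adjusted p = 0.0479). Plxnc1 read 6.97, 7.20 and 7.09 in wildtype and 6.76, 6.65 and 6.86 in transgenic tissue, again without overlap. Its change of -0.33 ± 0.09 missed the threshold (adjusted p = 0.0623) but passed with equal array medians (adjusted p = 0.0348) and with quantile normalization (adjusted p = 0.03). Without wildtype replicate 2 the change of Plxnc1 was -0.27 (limma adjusted p = 0.242). Testing all probe sets gave its brightest set an adjusted p of 0.095 in limma. Of the other Plxnc1 sets, 1450905_at had a change of -0.34 ± 0.11 (adjusted p = 0.152), and 4 were under the array median in both genotypes. On the mean of its sets Plxnc1 changed by -0.11 (limma adjusted p = 0.476). The Sema7a call held with transgenic replicate 3 dropped and ended on dropping any of the other 5 arrays (highest adjusted p 0.178), and testing all probe sets ended it too (limma adjusted p = 0.0746). Its other probe set had a change of 0.09 ± 0.09.

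Class 6 ligands, which are transmembrane and bind A-type plexins, had negative changes in 4 of 4 genes (median -0.20), and 1 passed. Sema6d, a ligand of Plxna1, read 8.46, 8.50 and 8.65 in wildtype and 8.28, 8.10 and 8.12 in transgenic tissue. The genotypes did not overlap (log2 change -0.37 ± 0.09, limma adjusted p = 0.0317). Dropping replicate 2 or 3 of either genotype ended the call (highest adjusted p 0.114), and so did testing all probe sets (limma adjusted p = 0.052). Sema6a, a ligand of Plxna2 and Plxna4, read 6.22, 6.58 and 6.52 in wildtype and 6.25, 6.16 and 6.18 in transgenic tissue, where wildtype replicate 1 fell within the transgenic range. It missed the threshold (-0.24 ± 0.10, limma adjusted p = 0.222). The change was -0.36 without wildtype replicate 1 (adjusted p = 0.0427) and -0.17 without wildtype replicate 2 (adjusted p = 0.564). Sema6b and Sema6c had changes of -0.02 ± 0.08 and -0.16 ± 0.10.

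Class 4 and class 5 semaphorins, further membrane ligands of plexins, did not pass, and 0 of these 8 genes had an unadjusted p under 0.05 in limma. The 6 class 4 genes had changes from -0.09 to 0.10, and their 95% intervals lay between -0.37 and 0.30. Sema5a and Sema5b had changes of -0.22 and 0.03, with intervals between -0.73 and 0.29.

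Plxdc2, a transmembrane protein with a plexin-like domain, read 4.02, 4.12 and 4.41 in wildtype and 4.77, 4.60 and 4.74 in transgenic tissue. The arrays did not overlap (log2 change 0.52 ± 0.11, limma adjusted p = 0.0174). The call ended on dropping wildtype replicate 1 or 2, or transgenic replicate 1 or 3 (highest adjusted p 0.0863). Its set 1449270_at rose by 0.75 ± 0.14, a call that ended on dropping wildtype replicate 1 or 2, or transgenic replicate 1 (highest adjusted p 0.0923), and 1431110_at had a change of 0.51 ± 0.16 (adjusted p = 0.124). Plxdc1 was under the array median in both genotypes (-0.01 ± 0.07).

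Mical2, an enzyme that oxidises and disassembles actin filaments, read 5.79, 6.07 and 5.73 in wildtype and 5.20, 5.35 and 5.46 in transgenic tissue. It was lower on all transgenic arrays, by 1.44-fold (log2 change -0.52 ± 0.11, limma adjusted p = 0.0185). The call ended on dropping wildtype replicate 2, or transgenic replicate 1 or 2 (highest adjusted p 0.0905). Its other probe set was dim in both genotypes (0.00 ± 0.08). Mical1 and Mical3 had changes of 0.09 and -0.06.

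The CRMP genes encode tubulin-binding proteins that carry the Sema3a signal to the growth cone. Limma called 0 of 5 on the brightest probe set, 0 had an unadjusted p under 0.05, and their changes ran from -0.13 to 0.11. Dpysl3, a CRMP gene of growing axons, read 11.40, 11.37 and 11.36 in wildtype and 11.43, 11.56 and 11.46 in transgenic tissue on that set (0.11 ± 0.08). On 1415877_at it read 9.53, 9.38 and 9.45 in wildtype and 9.91, 10.28 and 10.19 in transgenic tissue, without overlap. That set rose by 0.67 ± 0.11 and 1438789_s_at, of a type that can match several transcripts, by 0.88 ± 0.14 (limma adjusted p over all probe sets = 0.00919 and 0.00866). The call of 1415877_at was lost without wildtype replicate 2 (adjusted p = 0.0556).

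Other genes of semaphorin signalling went both ways. Of 85 genes on 4 lists, 80 were measured, 6 rose and 6 fell (15%, against 7.71% of all genes), with a median log2 change of -0.04. These shares were not matched for signal either, as only 6 of the 80 were under the array median in both genotypes. The count of 12 was 6 without wildtype replicate 2 and 8 without D6/Zbtb20S replicate 1 or 2. Among co-receptors 2 of 20 rose. Robo1, the Slit receptor, read 7.45, 7.21 and 7.73 in wildtype and 8.36, 8.29 and 8.26 in transgenic tissue (0.84 ± 0.12, limma adjusted p = 0.0025). Tyrobp, an adaptor used by Plxna1 with Trem2 in myeloid cells, read 5.70, 5.74 and 5.67 in wildtype and 6.39, 6.18 and 6.59 in transgenic tissue (0.69 ± 0.11, limma adjusted p = 0.00354). Both were higher on every transgenic array. The adhesion gene Nrcam, a partner of Nrp2 in Sema3f signalling, fell (-0.51 ± 0.13, limma adjusted p = 0.0464). L1cam and Chl1, neuropilin partners of the same family, had changes of -0.03 and 0.03. Trem2 (0.20 ± 0.09, limma adjusted p = 0.246) and Itgb1, the integrin subunit that Sema7a uses (-0.05 ± 0.10), did not pass.

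Among GTPases and their regulators 2 of 24 rose and 2 fell. Sipa1l1, a Rap GTPase-activating protein of dendritic spines, read 8.10, 8.16 and 8.63 in wildtype and 9.66, 9.61 and 9.69 in transgenic tissue, with no overlap (1.35 ± 0.13, limma adjusted p = 0.000201). Rras2, a Ras-family GTPase, rose by 0.60 ± 0.10, whereas the Rac exchange factors Tiam1 (-0.36 ± 0.09) and Tiam2 (-0.54 ± 0.11) fell. Among kinases, adaptors and cytoskeletal genes 1 of 29 rose and 3 fell. Map1b, a microtubule-binding protein of growing axons, read 7.07, 7.80 and 8.58 in wildtype and 9.43, 9.91 and 10.02 in transgenic tissue (1.97 ± 0.32, limma adjusted p = 0.00435). Cofilin (Cfl1, -0.36 ± 0.09), its phosphatase Ssh3 (-0.55 ± 0.10) and the endocytic adaptor Numb (-0.45 ± 0.11) fell. Of 7 MICAL-like proteins and proteases 1 rose, the membrane protease Mmp14 (0.69 ± 0.15).

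Wildtype arrays followed the order of the actin 3'-minus-5' signal in 6 of the 12 called pathway genes (50%, against 31.4% of all genes that passed). These were Map1b, Sipa1l1, Rras2, Mmp14, Nrcam and Numb, and the part of RNA quality was not tested. Probe sets of the pathway genes also differed. Map1b changed by 1.02 and 0.36 on its other sets, of which the second did not pass (limma adjusted p over all probe sets = 0.209), and by 1.11 on the mean of its sets. Robo1 had other sets at 0.54 and 0.02 and a mean of 0.47, Sipa1l1 a mean of 0.87 and Tiam2 a mean of -0.33, all past the threshold as means. Mmp14 had other sets at 0.33 and -0.09, neither of which passed, and Numb another at -6e-04. Nrcam passed on another set (-0.74, limma adjusted p over all probe sets = 0.0137) and did not on those at -0.44 and -0.08. Tiam1 likewise passed on another (-0.46, adjusted p = 0.0355) and did not on that at -0.11. Rras2 did not pass on its other set (0.36, adjusted p = 0.0927). Sipa1l1 passed on a set at 1.26 and did not on those at 0.51 and 0.36. On the mean of their sets Mmp14 (0.31, limma adjusted p = 0.0718), Numb (-0.22, 0.144), Nrcam (-0.44, 0.227) and Tiam1 (-0.31, 0.0797) lost their calls, and the replicate block also ended that of Tiam1 (limma adjusted p = 0.0588). Testing all probe sets ended the calls of the brightest sets of Cfl1 (limma adjusted p = 0.0743), Numb (0.0641), Nrcam (0.077) and Tiam1 (0.0596). The other Cfl1 set passed there (-0.43, adjusted p = 0.046). Quantile normalization also ended the call of Cfl1 (limma adjusted p = 0.0792).

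Several of these calls rested on single arrays. Cfl1, Mmp14, Nrcam, Numb and Tiam1 each lost theirs on dropping any of 4 or 5 arrays (highest adjusted p 0.195), and each of the 6 arrays was among those whose absence ended at least 1 of these calls. For Tiam2 these arrays were wildtype replicate 2 and transgenic replicate 1 (highest adjusted p 0.0755). The other 6 called pathway genes kept their calls with any 1 array dropped.

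**Figure D4:**
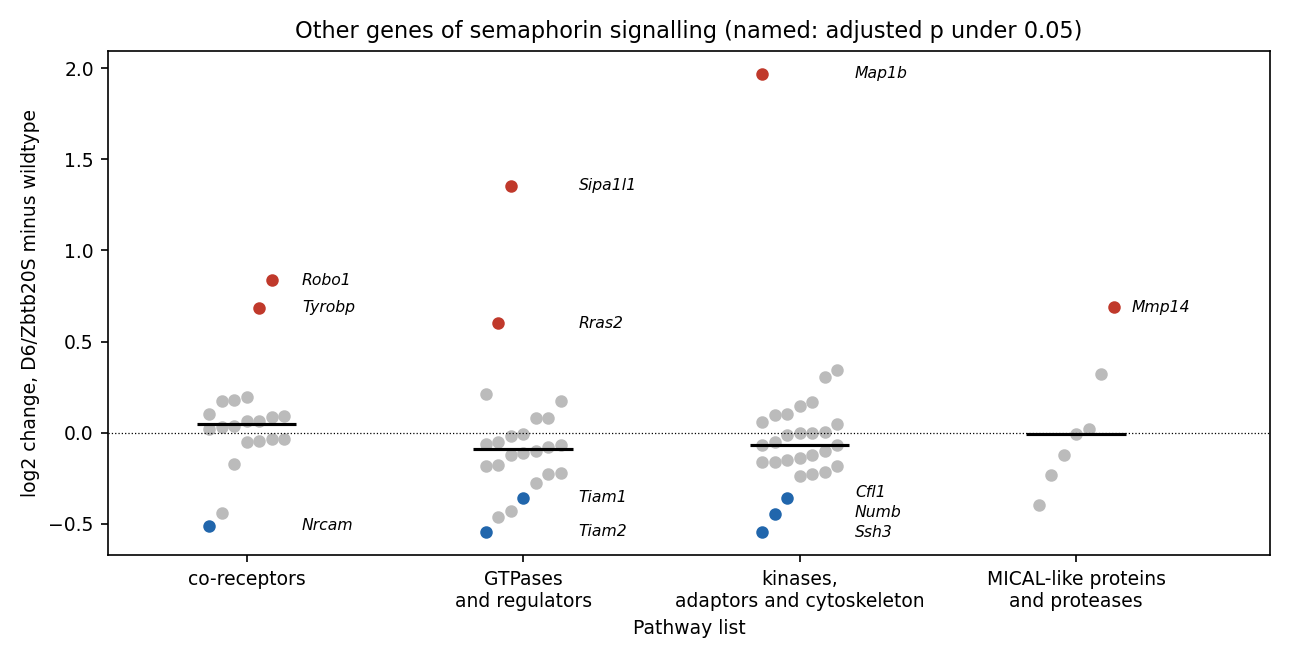
Log2 change (D6/Zbtb20S minus wildtype, vertical axis) of the 80 measured genes on the 4 pathway lists, with red for higher, blue for lower, grey for genes that did not pass and black lines for list medians. Map1b and Sipa1l1 stand above the rest at 1.97 and 1.35, and the lowest gene, Ssh3, lies at -0.55.

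Several members are also made by cells other than neurons, so markers of those cells were read on the same arrays. For scale, 4.06% of all genes rose and 3.64% fell, and 3694 of 18193 had an unadjusted p under 0.05 in limma. Plxdc2 rose beside microglial markers, of which 4 of 12, Tyrobp among them, rose and 0 fell (median log2 change 0.40). The summed linear signal of these markers was 629 to 667 in wildtype and 820 to 949 in transgenic arrays, and Aif1 and Itgam were under the array median in both genotypes. Sema6d and Sema7a fell beside oligodendrocyte lineage markers, of which 4 of 11 fell and 0 rose (median -0.25). Their sums were 1034 to 1233 in wildtype and 759 to 858 in transgenic arrays, and Mag, Mog and Nkx2-2 were under the array median in both genotypes. GABAergic markers fell in 2 of 12 genes and rose in 0, with sums of 2157 to 2322 and 2017 to 2091. The part of these cells in the changes of the members was not tested.

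Endothelial and mural markers, which bear on Sema3e and Plxnd1, fell in 1 of 14 genes and rose in 0, with sums of 842 to 1052 in wildtype and 808 to 988 in transgenic arrays that overlapped. Markers of meningeal fibroblasts (10 genes), choroid plexus (6) and Cajal-Retzius cells (8) had 0 calls in limma, with 0, 0 and 3 at an unadjusted p under 0.05, and their sums overlapped between genotypes. Radial glia and astrocyte markers fell in 1 of 14 genes and rose in 0, and intermediate progenitor markers fell in 2 of 9 and rose in 1. Of the excitatory neuron markers 2 of 8 rose and 2 fell. Of the CA1 markers 2 of 10 rose and 2 fell, with sums of 1628 to 1760 in wildtype and 1889 to 1961 in transgenic arrays.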

How the data were processed

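The authors deposited a table of log2 expression values for 6 Affymetrix mouse arrays of pooled total RNA; the submitters' processing notes name RMA and limma without versions. Deposited values were used without rescaling, and the array's background correction and any centring beyond RMA are not given in the sources used here. Of 45101 probe sets, 64 controls were left out, and the remaining 45037 were tested. Gene symbols came from the platform annotation, in which 34945 probe sets had 1 symbol, 932 had several and 9160 had none. Each of 18193 genes was read on its brightest probe set by mean of the 6 arrays, and a second fit covered all probe sets. Genotypes were compared with limma 3.58.1 (lmFit and eBayes, R 4.3.3) without covariates, and p-values were adjusted by Benjamini-Hochberg over the whole table (threshold 0.05). Figures were drawn with matplotlib 3.10.9 (Python 3.11.15).

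Tested on simulated data for this comparison (18193 genes, 200 changed), the fit found 45% of genes simulated with a log2 change of 0.5 and 87% of those with 1. The number of arrays limits the precision. The members and the gene lists were chosen with earlier results of these data known. Named in the text are members past the threshold, members whose genotypes did not overlap or that had another probe set past it, ligands and receptors of called members, and pathway genes past the threshold or known to partner a called member. Sema3b, Sema3c, Sema5a, Sema5b, Sema6a, Sema6b, Sema6c, Plxna3, Plxdc1, Mical1, Mical3, Pclo and Hgf were named after their values were seen. Alternatives were dropping each array, a replicate block, an ordinary linear model, quantile normalization, equal array medians, a prior variance with an intensity trend, array weights, bright probe sets only and averaging the probe sets of a gene; the fit over all probe sets was added after seeing the data. Promoter sequences came from a RefSeq table of GRCm38.p6. Protein sequences were not used here.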

Additional observations from a re-analysis of the deposited data

How the results depend on the processing

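Sema3e, Sema3d and Nrp2 kept their direction and their call under every alternative run except the ordinary linear model without moderation of the variance (adjusted p = 0.122, 0.0649 and 0.0772); Sema3d could not be fitted under the filter on dim probe sets, which removed it. With that linear model 267 genes differed in place of 1402, 0 members rose, 0 fell, 0 pathway genes passed and 8 of 117 cell type markers passed in place of 30. Array weights gave 2707 genes, 5 members lower and 23 pathway genes, against 3 and 12. Averaging the probe sets of a gene gave 7 members higher and 1 lower, with Sema3e at 1.29, Sema3d at 0.35 and with Plxna2 (0.74), Nrp1 (0.55), Dpysl3 (0.55) and Sema3f (-0.38) past the threshold. The change of Plxna1 turned sign there (-3e-04), by the inclusion of its dim probe set. Sema6d (-0.14), Sema7a (-0.14) and Mical2 (-0.26) lost their calls there (adjusted p = 0.272, 0.297 and 0.077). Array weights also brought Sema3c (1.09), Plxna4 (0.32), Plxnc1 (-0.42) and Sema6a (-0.33) past the threshold. For the other settings the cause was not tested. Leaving out 1 array gave 777 to 1538 genes (777 without wildtype replicate 2 and 837 without D6/Zbtb20S replicate 1), 3 to 6 members higher, 0 to 3 lower, 6 to 11 pathway genes and 23 to 33 cell type markers. Of 22 members not tracked one by one, 14 turned sign in some fit, at changes no larger than 0.0912.

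The replicate numbers showed no clear pairing of the arrays: same-numbered arrays had deviations correlated at -0.215, 0.175 and -0.008, and 2 of 6 arrays were closest to their own number. With so few arrays per genotype, these values cannot exclude a pairing. With the replicate block 1343 genes, 4 members higher, 2 lower (Sema6d lost, adjusted p = 0.0605), 13 pathway genes (Tiam1 lost, adjusted p = 0.0588) and 31 cell type markers passed. Probe sets near the array median have little signal over background, which limits Sema3d, Sema3g and Plxdc1. The scaling alternatives moved the median change of all genes by under 0.1.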
